A study of Arabidopsis thaliana with 13 samples.

Results

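Siliques of Arabidopsis thaliana from the lethal paternal-excess cross 2xX6x were compared with siliques of the balanced cross 2xX2x, 5 days after pollination. In each name the mother stands before the X and the father after it, each by its ploidy. The compared arrays are the 4 whose titles name these crosses (2 biological replicates each), of 13 Affymetrix ATH1 arrays in all. The seed parent of both crosses was a diploid C24 plant made male sterile by the A9-barnase transgene, in which a promoter of the anther tapetum drives a ribonuclease. The pollen parent was diploid C24 in 2xX2x and hexaploid Col-1 in 2xX6x, without genetic modification in either, so that ploidy and accession of the father cannot be told apart. Other crosses enter only beside these: 2xX4x (diploid C24 A9-barnase mother, tetraploid C24 father), 4xX2x (tetraploid C24 A9-barnase mother, diploid C24 father), 6xX2x (hexaploid Col-1 mother, diploid C24 father) and fis1X2x (Ler mother homozygous for fis1-3, also named mea-3 or f644, diploid C24 father). All were harvested at the same age with 2 replicates each, and each sample was a pool of siliques from several plants.

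In flowering plants the endosperm, the nutritive tissue of the seed, normally receives more maternal than paternal genomes, and its growth responds to that ratio. Extra paternal genomes prolong the free-nuclear phase of the endosperm, delay or prevent the formation of cell walls between its nuclei, and enlarge the chalazal end through which the seed is fed. A hexaploid father takes this so far that the seeds die. FIS1 (MEDEA) is a component of a Polycomb complex that keeps target genes silent in endosperm, and seeds of mothers without it also overgrow and fail to cellularize.

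Whole siliques were measured, so that RNA of fruit wall, seed coat, endosperm and embryo was mixed. Fewer cells of a type and less RNA per cell cannot be told apart in such samples. Values are signals, the brightness of a probe set on a linear scale, and changes are differences of log2(signal + 7.4), which understate the fold of a dim probe set. DFR and BAN, flavonoid genes of the seed coat, had signals of 1007.5 and 1454 (DFR) and of 744.8 and 1607.5 (BAN) in 2xX2x, against 1050.5 and 1439.4 (DFR) and 792.6 and 1549.8 (BAN) in 2xX6x. The 4 measured fruit-wall genes changed by -0.28 to 0.33 and none was called. Of 2 endosperm markers with a probe set of their own, AGL62 read 8.6 and 4.7 in 2xX2x and 54.5 and 33.5 in 2xX6x (log2 change 1.85, adjusted p = 0.0945 by limma). The other, AT5G46940, read 35.8 and 25.2 against 17 and 26.6 (-0.38, adjusted p = 1), so the label of the tissue rests on few markers here. The ratio of 3' to 5' probe sets for GAPDH, a sign of RNA integrity, was 1.71 and 2.08 in 2xX2x and 1.71 and 2.06 in 2xX6x. The same ratio for actin was much higher, 10.6 and 13.6 in 2xX2x and 8.94 and 15 in 2xX6x. Correlations between the 4 arrays ran from 0.873 to 0.923.

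Of 15982 probe sets tested with limma, 152 (0.951%) passed an adjusted p of 0.05: 85 rose (0.532%) and 67 fell (0.419%). An unadjusted p under 0.05 was reached by 819, close to the share of 0.05 that passes when nothing differs. For all 152, both 2xX6x arrays lay beyond both 2xX2x arrays. Risers were mostly dim in 2xX2x and fallers bright there. The split by direction favours this, since a probe set near the bottom of the scale cannot fall. In 2xX2x, 54 and 53 of the 85 risers lay under the 40th percentile of their array, the level used to filter, and their median signal was 18.8 and 21.3 on the 2 arrays, against 193 and 193 in 2xX6x. The 67 fallers had medians of 161 and 149 in 2xX2x and of 27.6 and 31.6 in 2xX6x. Risers that passed the filter only through 2xX6x had to differ, so their number describes the change and does not test it. With 2 arrays a group the count depends on each array: leaving out 2xX6x replicate 1 or 2 gave 65 and 86, and leaving out 2xX2x replicate 1 or 2 gave 96 and 84. It was 71 in a fit of the 4 arrays alone and 87 without the offset.

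**Figure D1:**
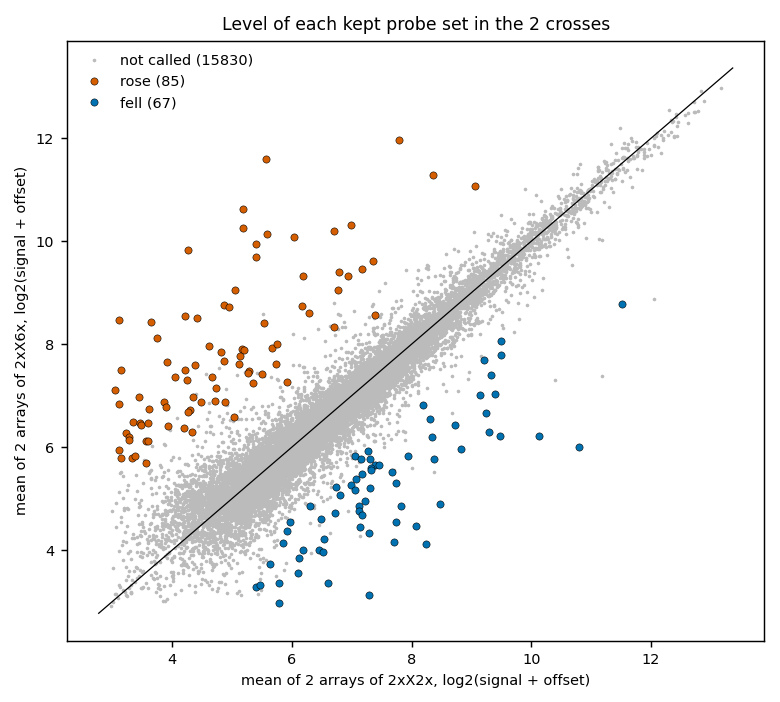
Mean level of each kept probe set in 2xX2x (horizontal) and 2xX6x (vertical), both as log2(signal + offset) over 2 arrays, with the line of equal level. The 85 probe sets that rose (orange) start mostly at low levels in 2xX2x, the 67 that fell (blue) at middle and high levels and the rest, not called, are grey.

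A single gene was annotated for 50 of the risers and 33 of the fallers, and the called genes named below are among these. Of them, 24 risers and 7 fallers stayed called whichever of the 4 arrays was left out, and 14 risers and 16 fallers lost the call with any of the 4 left out. The probe set with the largest rise (log2 change 6.03) is annotated to several genes and is not named.

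**Figure D2:**
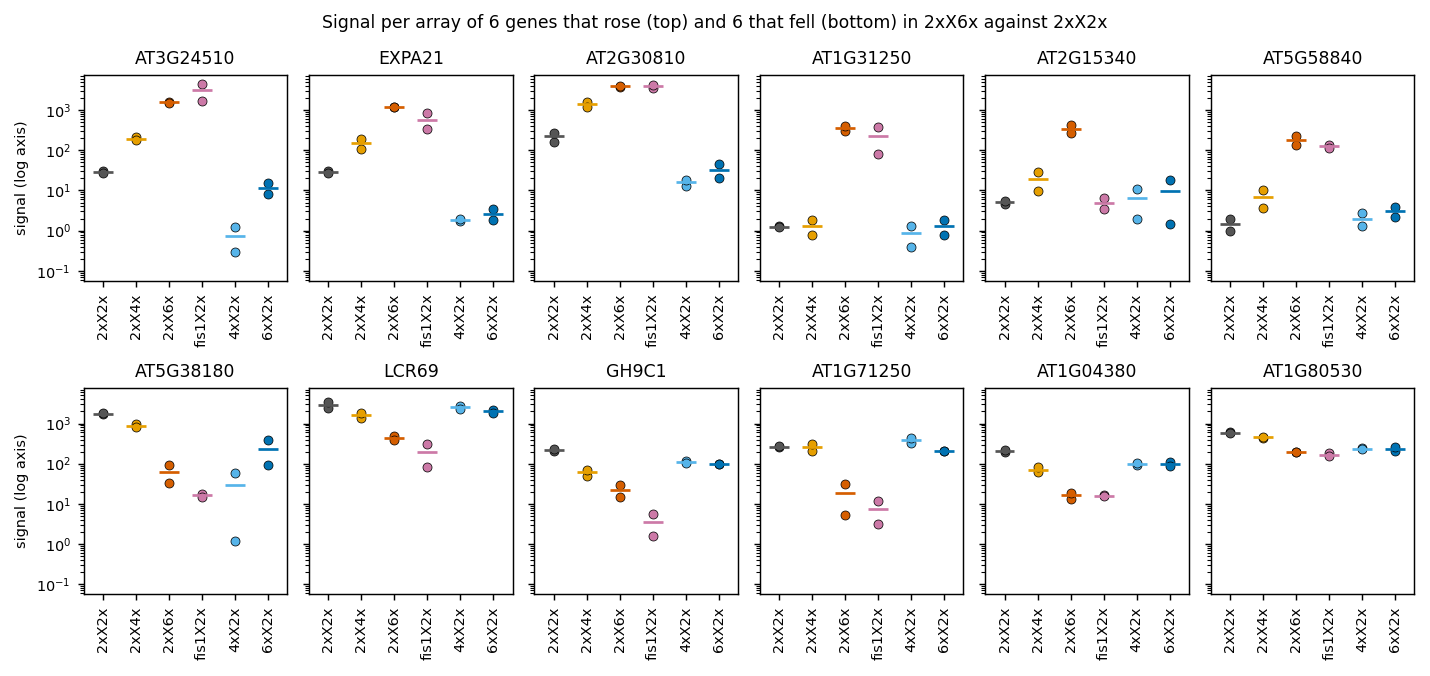
Signal on each array (points, log axis) and mean of 2 arrays (bars) in 6 crosses for 6 genes that rose and 6 that fell in 2xX6x against 2xX2x. AT3G24510, EXPA21 and AT2G30810 also read higher in 2xX4x than in 2xX2x, AT1G31250 does not, and AT2G15340 is high only on the 2xX6x arrays among those shown.

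Genes for small secreted cysteine-rich proteins, a group that includes defensins and signals of reproduction, moved in both directions. Of 12 measured members 5 rose and 2 fell, with a median change of 0.66 beside -0.01 over the 8696 genes with a kept probe set, of which 50 rose and 32 fell. The list was written with earlier results of these data known, so these counts do not test the family. Its search by symbol also caught the peptide deformylase genes PDF1A and PDF1B, which are no defensins and were not called. AT3G24510, a defensin-like gene, read 30.6 and 27.7 in 2xX2x and 1589.1 and 1551.5 in 2xX6x. Its arrays were far apart between crosses and close within each, and the change of 5.43 ± 0.38 (SE, n = 2 against 2, adjusted p = 8.43e-05, limma) was the largest rise of any gene with a probe set of its own. LCR24 went from 25.7 and 46.8 to 896.6 and 1055.7 (23.1-fold), and AT5G54220 from 62.4 and 54.9 to 1284.7 and 898.5 (16.4-fold). AT3G05460 rose 17.1-fold, and LCR59 rose 8.8-fold from 2.7 and 2.9 to 76 and 89.2. LCR59 lost the call without either 2xX6x array (adjusted p up to 0.0655) and without the offset, and AT3G05460 lost it in the fit of the 4 arrays alone (adjusted p = 0.0814).

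The defensin genes of the other direction were bright in the balanced cross. LCR69 read 2500 and 3438.3 in 2xX2x and 475.7 and 388.2 in 2xX6x, a fall by 2.75 ± 0.47 on the log2 scale (adjusted p = 0.0173). PDF2.1 read 134.7 and 59.5 against 0.6 and 5.9, so that it was near the bottom of the scale in 2xX6x (9.45-fold lower, adjusted p = 0.00373). LCR69 and PDF2.1 lie 3 genes apart on chromosome 2. LCR68 and LCR72, defensin genes beside them, had changes of 0.81 and 0.52 and were not called. The call of LCR69 was lost with any of the 4 arrays left out (adjusted p from 0.0584 to 0.147), and that of PDF2.1 without 2xX6x replicate 1 (0.055), without the offset and in the fit of the 4 arrays alone.

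Among genes of the cell wall, which sets how far plant cells can expand, 5 of 60 measured members rose and 1 fell (median change 0.17). Over the 8696 genes with a kept probe set 50 rose and 32 fell, the reference for the lists below too. All lists were written with earlier results of these data known, so their counts describe members and test no family. EXPA21 encodes an expansin, a protein that loosens walls without cutting them. It read 29.8 and 27.7 in 2xX2x and 1218.3 and 1203.4 in 2xX6x, a 33.7-fold rise (log2 change 5.08 ± 0.39, adjusted p = 0.000148) with the 4 arrays in 2 tight pairs. TBL15 and TBL41, of the family that acetylates wall polysaccharides, rose 8.04-fold (13.8 and 2.7 to 123.5 and 98.3) and 6.48-fold (31.4 and 27.1 to 219.1 and 240.7). AT2G39640 and AT2G43670, of the glucanase-like group, rose 4.88-fold and 3.87-fold. Of these, TBL15 kept its call only without 2xX2x replicate 1 (adjusted p up to 0.256), and AT2G39640 and AT2G43670 lost theirs with any of the 4 arrays left out (up to 0.263 and 0.336). EXPA21 and TBL41 kept theirs each time. The gene that fell was GH9C1, an endoglucanase: 210.7 and 226.3 in 2xX2x against 15.1 and 29.8 in 2xX6x, a 7.8-fold drop (adjusted p = 0.000756) that was called in each setting tried. AT1G09550 (1.71, adjusted p = 0.0817) and TBL42 (1.65, adjusted p = 0.124) had both 2xX6x arrays above both 2xX2x arrays but missed the threshold.

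Proteases of the subtilisin type, secreted enzymes that trim other proteins, included a run of neighbours. Of 9 members of the list 2 rose and 1 fell, with a median of -0.09. AT5G58840, one of the 2, was nearly dark in 2xX2x (2 and 1) and read 133 and 225.8 in 2xX6x, a 20.4-fold rise (adjusted p = 0.00034). The 2 loci directly before it, AT5G58820 and AT5G58830, were not on the list and are named because they were called. AT5G58820 went from 0.6 and 2 to 75.7 and 148.6 (13.1-fold) and AT5G58830 from 19.4 and 25.1 to 110 and 111.7 (4.01-fold). Whether probes of one of these similar genes also bind transcripts of another was not tested. AT5G58820 missed the threshold without 2xX6x replicate 2 (adjusted p = 0.0514), and AT5G58830 with any of the 4 arrays left out (0.103 to 0.194). SBT5.4 rose 3.81-fold and also lost its call with any of the 4 left out (0.0713 to 0.226). SBTI1.1 ran the other way, from 209.8 and 89.3 to 15.9 and 20.7 (5.66-fold lower), and missed the threshold without 2xX6x replicate 1 (0.08) and in the fit of the 4 arrays alone. Further protease genes among the risers were AT1G44130, which encodes an aspartyl protease (2.9 and 4.4 to 87.4 and 75.1), and the serine carboxypeptidase-like genes scpl47 (6.13-fold) and scpl21 (3.76-fold, lost with any of the 4 arrays left out, up to 0.236).

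Lipid-related genes named here also moved in both directions. The lipase-like list held only 3 loci, chosen with earlier results of these data known, so it does not describe the GDSL lipase family. Of its 2 measured genes, AT1G73610 rose 16-fold (23.5 and 28.2 to 516.7 and 529.7, adjusted p = 0.000954) and AT1G71250 dropped 12.3-fold (253 and 274.5 to 5.3 and 30.9, adjusted p = 0.00251). AT1G71250 was not called in the fit of the 4 arrays alone. Of 8 lipid transfer genes, whose small proteins bind lipids outside the cell, 1 rose and 1 fell (median -0.20). AT5G09370 went from 426.4 and 651.3 to 1904.8 and 2434 (4.04-fold), a call also lost in the fit of the 4 arrays alone. AT5G38180 had the largest fall of any gene with its own probe set, from 1710 and 1815.7 to 32.7 and 93.9 (27.8-fold, log2 change -4.80 ± 0.84, adjusted p = 0.0207). It lost the call with any of the 4 arrays left out (0.0514 to 0.232) and without the offset (0.287). Its neighbours AT5G38160 and AT5G38170 read 1949.2 and 2738.7 (AT5G38160) and 3257.4 and 5513.2 (AT5G38170) in 2xX2x, against 45.7 and 513.1 (AT5G38160) and 190.2 and 1107.7 (AT5G38170) in 2xX6x. Both 2xX6x arrays lay below both 2xX2x arrays for each, and neither passed the test (adjusted p = 0.0584 and 0.0694). The neighbourhood did not fall as a whole. AT5G38195, 3 genes from AT5G38180, read 1257.6 and 2160.5 in 2xX2x and 2095 and 1548.5 in 2xX6x, which overlap (0.13). AT1G73560 had a change of 3.05 and an adjusted p of 0.053.

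Hormone genes gave 1 call. AT2G30810, of the gibberellin-regulated GASA family of small cysteine-rich proteins, read 165.6 and 278.4 in 2xX2x and 3827.7 and 4131.1 in 2xX6x, without overlap, a change of 4.16 ± 0.34 (17.9-fold, adjusted p = 0.000218). It was called in each setting tried. The other 3 of 4 measured genes on the gibberellin list, the receptors GID1A, GID1B and GID1C, lay between -0.09 and 0.63. None of 8 auxin genes and none of 3 cytokinin genes passed (medians 0.49 and 0.49). The nearest was IAA31, an auxin-response repressor, with 297.1 and 290.6 against 738.4 and 668.3 (1.24, adjusted p = 0.148). Of 16 sugar and nutrient transport genes, SWEET8 alone rose, from 89.7 and 115.6 to 580 and 479.1 (4.89-fold, adjusted p = 0.0062). SWEET proteins let sugars pass through the plasma membrane. The median of that list was -0.09, and SWEET8 lost its call without 2xX6x replicate 1 or 2xX2x replicate 1 (up to 0.0831).

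Type I MADS-box genes encode transcription factors active in the female gametophyte and early endosperm. Of 9 measured, 1 rose: AT5G26630 went from 7.4 and 2.7 to 104.2 and 94.1 (8.71-fold, adjusted p = 0.0034). It missed the threshold without 2xX6x replicate 1 (0.0554) and without the offset. AGL62, which holds back endosperm cellularization, and AT4G36590 had changes of 1.85 and 2.45 that missed the threshold (adjusted p = 0.0945 and 0.182), and AGL87 one of -1.49 (0.0804). The list's median was 0.15. Of 3 measured imprinted genes, MPC, which is expressed from the maternal alleles in endosperm, rose 9.96-fold from 14.8 and 5 to 161.7 and 154 (adjusted p = 0.00311). Its arrays did not overlap, and its call held with each array left out. The other 2, AT3G23060 (0.95) and AT1G60400 (1.02), were not called.

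Further large rises were of genes on no list. AT1G31250 was dark in 2xX2x (1.3 and 1.2) and read 303.4 and 400.4 in 2xX6x, a change of 5.36 ± 0.56 (41.2-fold on the offset scale, adjusted p = 0.000743). AT2G15340 went from 4.6 and 5.6 to 270.3 and 420.5 (27.6-fold) and was not called without the offset (adjusted p = 0.0662). AT4G32105 rose 19.7-fold, AT3G02670 13.4-fold and AT2G02515 10-fold. AT2G02515 missed the threshold without 2xX6x replicate 1 (0.0506), and AT3G02670 in the fit of the 4 arrays alone (0.088). AT4G20800 rose 9.71-fold, 10.4 and 12.1 to 193.4 and 155.5, and was not called without the offset (adjusted p = 0.201). AT5G24316 rose 8.82-fold with tight pairs, 55.4 and 76.3 to 639.3 and 624.4. DD46, known from the embryo sac, rose 7.35-fold from 3.2 and 6.5 to 73.8 and 90.5, but was called only without 2xX2x replicate 2 when an array was left out (adjusted p up to 0.109 otherwise).

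Further genes that fell were on no list. AT1G04380, a 2-oxoglutarate-dependent oxygenase, read 191.6 and 223.1 in 2xX2x and 13.4 and 18.8 in 2xX6x. This drop by 3.20 ± 0.25 on the log2 scale (9.17-fold, adjusted p = 0.000167) was called in each setting tried, as was that of AT1G12080 (355.7 and 340.2 to 12.3 and 37.8, 11.9-fold). A second gene of the oxygenase family, AT3G11180, dropped 5.51-fold but lost its call without either 2xX2x array or 2xX6x replicate 1 (up to 0.101). AT5G07260, which encodes a START lipid-binding domain, went from 142 and 156.7 to 6.6 and 21.3 (7.81-fold), and AT3G12870 from 103 and 69.1 to 7.2 and 9.3 (5.89-fold). Both lost their calls in the fit of the 4 arrays alone. AT1G80530, a transporter of the major facilitator type, read 604.1 and 565 against 200.7 and 199.7, a 2.85-fold drop that was called only without 2xX2x replicate 2 when an array was left out. AT5G07160, ARPN (a plantacyanin), AT1G04645 and AT5G50740 dropped 7.05-fold, 6.51-fold, 5.97-fold and 5.84-fold. ARPN, AT5G07160 and AT5G50740 lost their calls with any of the 4 arrays left out (up to 0.299), and AT1G04645 without 2xX2x replicate 2 or 2xX6x replicate 1 (up to 0.244).

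Of genes of division, TOPII, on no list and named because it was called, encodes the topoisomerase that untangles replicated DNA. It dropped from 162.5 and 113.2 to 43.7 and 50.5 (2.63-fold, adjusted p = 0.0371), a call lost with any of the 4 arrays left out (0.0649 to 0.316). Of 34 listed loci of mitosis and cytokinesis, 6 had an annotated probe set of their own and 5 were measured. Most of that list could not be read. None of these 5 mitotic genes was called, and all 5 changes were below 0 (-0.98 to -0.16, median -0.53), with AUR1, an Aurora kinase, at 127.9 and 105.1 against 87.3 and 51.5 (adjusted p = 0.693). None of 5 histone genes was called (median -0.24). None of 5 storage and maturation genes was called either. AT4G36700, a cupin, read 254.3 and 68.8 in 2xX2x and 1.2 and 36.3 in 2xX6x (adjusted p = 0.219).

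Because the fathers differed in accession, 4 genes listed as accession-linked were read as well. They were chosen with earlier results of these data known, so their readings do not test the part of accession. None was called. For QQS and AT1G47400 both 2xX6x arrays lay above both 2xX2x arrays (log2 changes 0.94 and 1.97), and for ECS1 and AT2G25510 the arrays overlapped. QQS read 1.5 and 1.6 in 2xX2x and 15.7 and 5.3 in 2xX6x, against 108.4 and 326.1 in 6xX2x, where the mother was Col-1. AT1G47400 read 14.3 and 19, 63.1 and 117.2, and 676.8 and 469.4 in the same order, and AT2G25510 read 90.2 and 25.4, 37.6 and 190.6, and 2567.7 and 1629.8. ECS1 read 9.6 and 18.9, 16.2 and 11.2, and 1041.2 and 2184.9. For all 4, both 6xX2x arrays lay above both 2xX6x arrays, and the fruit wall and seed coat of 6xX2x were also Col-1. The part of accession in the other changes was not tested.

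**Figure D3:**
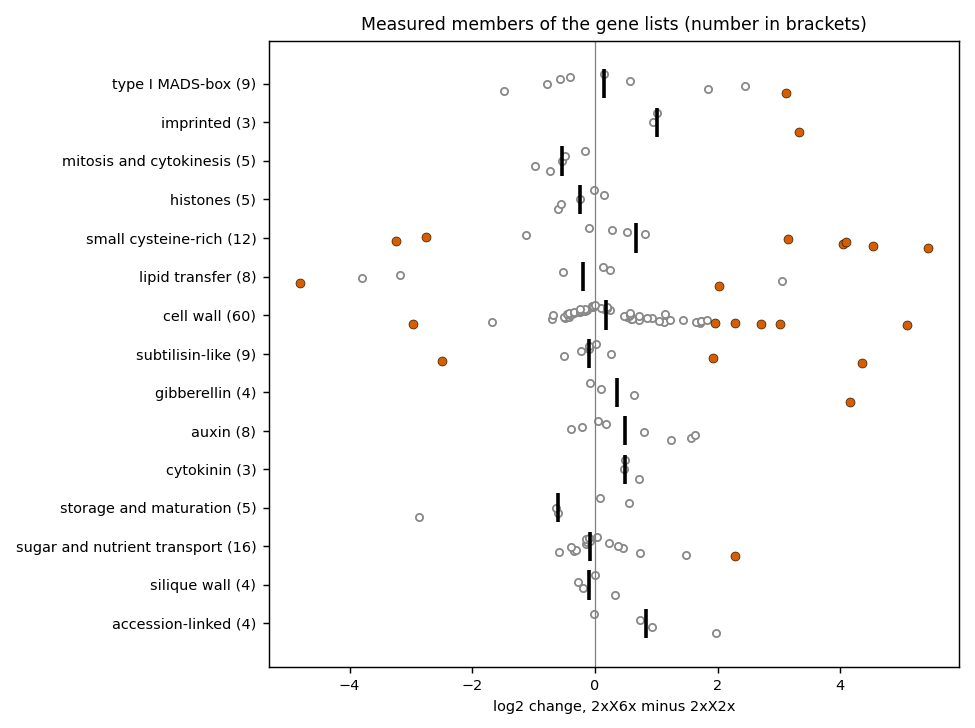
Log2 change (2xX6x minus 2xX2x) of each measured member of the gene lists with 3 or more members, filled where the adjusted p was under 0.05, with the median as a bar. Small cysteine-rich, lipid transfer, cell wall and subtilisin-like genes were called in both directions, and 7 of the lists had no called member.

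The next question was how the lethal cross differed from the viable one with the same direction of excess. The father was hexaploid Col-1 in 2xX6x and tetraploid C24 in 2xX4x, so his ploidy and accession cannot be told apart in this contrast. A direct test of 2xX6x against 2xX4x called 54 probe sets (0.338%), 30 higher and 24 lower in 2xX6x. It rests on each array: 0 were left by limma without 2xX4x replicate 2 or without 2xX6x replicate 1 (302 and 801 at an unadjusted p under 0.05), 9 were left without 2xX4x replicate 1 and 10 without 2xX6x replicate 2. In the main fit 586 of 15982 probe sets had an unadjusted p under 0.05. That is less than the share of 0.05 passed when nothing differs, so such counts are no sign of further differences. Among the largest differences were those of AT1G31250, AT5G58840 and AT1G73610. AT1G31250 read 1.8 and 0.8 there and differed by 5.36 between the paternal crosses (adjusted p = 0.00464). AT5G58840 read 10.5 and 3.6 (3.69, adjusted p = 0.00464), and AT1G73610 read 51.7 and 26.2 (3.57, adjusted p = 0.00651). Others stood between: EXPA21 read 192.8 and 107.7 (difference 3.00, adjusted p = 0.00839). AT2G30810 read 1582.2 and 1212.2, and its difference of 1.52 was not called (adjusted p = 0.156). Of the fallers, AT1G71250 read 203.9 and 309.8 in 2xX4x and differed by -3.55 (adjusted p = 0.00839), and AT5G07260 (107.1 and 114.4) by -2.56 (0.0149). GH9C1 (49.8 and 71) differed by -1.21, which was not called (0.277). Over the 85 risers, the change from 2xX2x to 2xX4x was a median share of 0.408 of that to 2xX6x on the log2 scale, and over the 67 fallers 0.285. These shares use the same 2xX2x and 2xX6x arrays as the calls, which favours values between.

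Seeds of the mother without FIS1, pollinated by a diploid, were compared with 2xX6x next. A direct test of fis1X2x against 2xX6x called 31 probe sets (0.194%), 13 higher and 18 lower in fis1X2x, and 12 to 19 when an array of either cross was left out. An unadjusted p under 0.05 was reached by 1280 of 15982, above the share of 0.05 that passes when nothing differs. AT2G15340 was among the genes that differed, with 270.3 and 420.5 in 2xX6x against 3.4 and 6.5 in fis1X2x, a difference of -4.81 (adjusted p = 0.00621). In 2xX2x it read 4.6 and 5.6. AT5G58820 read 10.7 and 13.1 in fis1X2x (difference -2.56, adjusted p = 0.0632), while its neighbour AT5G58840 read 135.9 and 117.8. AT5G48490, a lipid transfer gene, read 725.8 and 530.4 in fis1X2x, 27.4 and 29 in 2xX6x and 53.3 and 23.1 in 2xX2x, and was not called in 2xX6x against 2xX2x. The fis1 mother was of another accession, so fis1 and Ler cannot be told apart in these differences.

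Arrays that took no part in the comparison were used to ask where else the 152 probe sets differ. A fit of the 8 arrays of 2xX4x, 4xX2x, fis1X2x and 6xX2x shares no array with 2xX6x or 2xX2x, though the calls used all 12 arrays for their variance and the choice of contrasts came after earlier results were known. Of the 85 risers, 47 (55.3%) were higher in 2xX4x than in 4xX2x and 0 lower, where 2.04% of all probe sets were higher and 1.11% lower. Their median difference was 1.92, beside 0.02 for all probe sets. Both parents were C24 in both crosses, so this contrast holds no accession difference. Of the 67 fallers, 3 were lower and 6 higher in the same contrast, with a median of 0.04. The difference between risers and fallers was not tested. AT2G30810 read 1582.2 and 1212.2 in 2xX4x and 13.2 and 18.5 in 4xX2x (difference 5.91, adjusted p = 4.38e-05), and AT5G09370 read 949.3 and 1081.8 against 29.3 and 39.5 (4.62, adjusted p = 4.30e-05). Of the 15 largest rises with 1 gene, 6 were not called there: AT1G31250 (0.08), AT2G15340 (0.93), AT5G58840 (0.58), AT1G73610 (1.99, adjusted p = 0.0615), AT5G58820 (0.28) and MPC (0.33). Among the fallers SBTI1.1 was lower in 2xX4x (-3.08, adjusted p = 0.000435) and AT5G38180 higher (5.21, adjusted p = 0.0083).

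The next contrast set fis1X2x against the viable paternal cross. Of the 67 fallers, 38 (56.7%) were lower in fis1X2x than in 2xX4x and 0 higher, where 0.732% of all probe sets were lower, and all 67 differences were below 0 (median -1.74), or 66 without fis1X2x replicate 2. Mothers were Ler and C24 here, so accession differs as well. Of the 85 risers 29 (34.1%) were higher and 0 lower, where 0.519% were higher (median 1.57). AT1G71250 read 12 and 3.2 in fis1X2x and 203.9 and 309.8 in 2xX4x (difference -4.17, adjusted p = 0.000676), and LCR69 82 and 308.2 against 1407.9 and 1793.4 (-3.25, adjusted p = 0.0124). GH9C1 differed by -2.63 (adjusted p = 0.00407) and AT1G04380 by -1.74 (0.0143). AT3G24510 ran the other way, 1728.6 and 4532 in fis1X2x against 216.5 and 177.5 in 2xX4x (3.79, adjusted p = 0.00316). In the contrast of lethal with viable maternal excess, 6xX2x against 4xX2x, 6 of the 67 fallers were lower and 0 higher (median -0.50), where 1.21% of all probe sets were lower. Of the risers there, 0 were higher and 1 lower, where 1.58% were higher. Mothers were Col-1 in 6xX2x and C24 A9-barnase in 4xX2x, so ploidy and accession of the mother cannot be told apart in this contrast. The GAPDH ratio of 6xX2x was 6.93 and 1.96 and that of 4xX2x 1.2 and 2.07, and its part in this contrast was not tested. Counts on these arrays depend on single arrays. Without 2xX4x replicate 1 or 2, 27 and 31 risers were higher in 2xX4x than 4xX2x, and 13 and 5 fallers and 9 and 3 risers stood apart in fis1X2x against 2xX4x. Without fis1X2x replicate 1 or 2, the last contrast held 20 and 21 fallers and 13 and 10 risers.

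**Figure D4:**
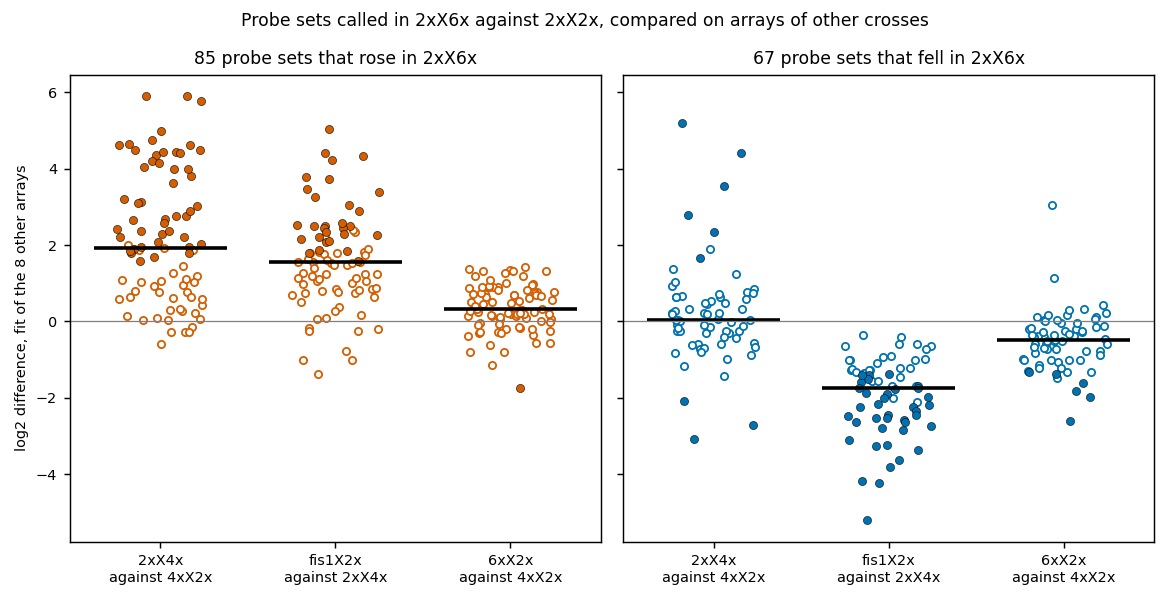
Log2 difference of the 85 probe sets that rose (left) and the 67 that fell (right) in 2xX6x, in 3 contrasts fitted on the 8 arrays of other crosses. Filled points had an adjusted p under 0.05 and bars are medians: risers lie at 1.92 in 2xX4x against 4xX2x and fallers at 0.04, while in fis1X2x against 2xX4x fallers lie at -1.74 and risers at 1.57.

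Called single-gene probe sets lay on every chromosome, with 8 to 14 risers and 1 to 12 fallers on each. Probe sets of several genes were left out of the gene order, so runs of genes that share a probe set are missed. The number of neighbouring pairs to expect was not computed. Of 83 called single-gene probe sets with a locus, 4 neighbouring pairs lay at most 5 genes apart, 3 of them with the same direction: the 2 pairs within the subtilisin-like run on chromosome 5 and the defensin pair on chromosome 2. The fourth joined AT3G02640, which fell, with AT3G02670, which rose. On no chromosome did the median change of a 2xX6x array differ from that of the other chromosomes by more than 0.0267 on the log2 scale, with 1247 to 2283 genes on each.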

How the data were processed

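Total RNA of whole siliques was hybridised by the authors to ATH1 arrays, 1 per sample, and the deposited table holds MAS5 signal intensities on a linear scale, without detection calls. Of 22810 probe sets, 64 controls were left out. The filter required a signal over the array's 40th percentile on 2 or more arrays, which 15982 of 22746 probe sets passed. Log2(signal + 7.4), with the 20th percentile of all signals as offset, was fitted with limma 3.58.1 in R 4.3.3 (1 mean per cross over the 12 replicated arrays, eBayes with trend, 6 residual and 4.92 prior degrees of freedom). Tests were two-sided with Benjamini-Hochberg adjustment over all kept probe sets and a threshold of 0.05. The 2 arrays a group limit the precision. In the main fit a p-value sets a difference against the spread between replicate pools of plants. That spread was estimated over all 12 arrays, not over 2xX6x and 2xX2x alone.

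Genes come from the platform annotation, in which 13513 probe sets have 1 gene, 503 have more and 8730 have no entry. The last 2 kinds were tested and not named, so many known genes of each pathway are not analysed here. The TAIR10.1 gene table gave locus names and gene order only. Lists used the probe set with the highest mean signal of each gene. Genes named are the 15 largest rises and falls with arrays that do not overlap, up to 8 members of each list by p, the 6 largest of each direct contrast, and called genes of the same families. Called genes such as AT4G20800, AT5G24316, DD46, AT1G80530 and TOPII were named outside these rules. Members, lists and contrasts were chosen with earlier results of these data known. LCR68, LCR72 and the neighbours in gene order were named after their values were seen. Scripts were tested on simulated data, and ran in Python 3.11.15 with pandas 2.3.3, numpy 2.4.6 and matplotlib 3.10.9. Alternatives varied offset, filter, normalization, variance model, arrays and replicate block. Contrasts on the 8 other arrays, and leaving out arrays of other crosses, were added after seeing the data.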

Additional observations from a re-analysis of the deposited data

Results flagged for a closer look

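Each of these differences comes from a direct test between crosses that had both been set against 2xX2x, with limma over the 12 arrays. Between 2xX6x and 2xX4x, 54 probe sets differed. The fathers were Col-1 and C24, so accession cannot be told apart from ploidy in these differences. The 6 largest single-gene differences with 2xX6x higher were AT1G31250 (log2 difference 5.36), AT2G15340 (3.80), AT5G58840 (3.69), AT1G73610 (3.57), AT5G58820 (3.37) and EXPA21 (3.00). Those with 2xX6x lower were AT1G71250 (-3.55), AT1G61500 (-2.74), PDF2.1 (-2.74), AT5G37520 (-2.69), AT5G07260 (-2.56) and AT3G12870 (-2.28). AT1G61500 read 48.4 and 55.5 in 2xX4x and at most 1.7 on the 2xX6x and 2xX2x arrays, and it was higher still in 4xX2x (224.4 and 144.9). AT5G37520 read 238.1 and 362.6 in 2xX4x, 50.8 and 30.2 in 2xX6x and 59.3 and 108.2 in 2xX2x.

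Between fis1X2x and 2xX6x, 31 probe sets differed. Lower in fis1X2x were AT2G15340 (-4.81), AT3G43740 (-2.96), LUL1 (-2.86), AT4G02450 (-2.76), AT2G29370 (-2.74) and AT2G25625 (-2.60). Higher were AT5G48490 (4.14), AT5G01870 (2.71), AT4G19240 (2.70), AT4G18975 (2.69), AT1G30260 (2.02) and AT4G23670 (1.93). Apart from AT2G15340, these genes were not called in 2xX6x against 2xX2x, and the part of the mother's accession in them cannot be told apart from that of fis1.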

How the results depend on the processing

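For 2xX6x against 2xX2x the count of 152 became 87 without the offset, 75 against a minimum change of 0.6, 71 in a fit of the 4 arrays alone, 559 by size alone (all 4 pairs of arrays at least 0.6 apart) and 65 to 155 with an array of any cross left out. For 2xX6x against 2xX4x it became 17 without the offset, 123 with array weights, 21 against the minimum change and 0 to 59 with an array left out. For fis1X2x against 2xX6x it became 16 against the minimum change, 15 in a fit of its 4 arrays and 12 to 41 with an array left out. On the other 8 arrays, without the offset 7 risers were higher in fis1X2x than in 2xX4x. With calls from the 4 compared arrays alone (54 risers, 17 fallers), 32 risers were higher in 2xX4x than 4xX2x, and 14 fallers were lower and 23 risers higher in fis1X2x. For the full lists of 85 risers and 67 fallers, the same 3 counts ranged from 27 to 49, 5 to 37 and 3 to 32 with an array left out. Calls of listed genes numbered 24, 17 without the offset and 26 after quantile normalization. Uncalled genes changed sign with an array left out: DFR (-0.24 to 0.29), BAN (-0.53 to 0.57), AT2G25510 (-0.33 to 1.81), LCR72 (-0.0319 to 1.07) and ECS1 (-0.328 to 0.302, 0.00375 with median centring and 0 without the offset). The causes were not tested. With the replicate number as a block, 153 probe sets were called, 138 of them shared, and no other count above moved by over 1.5 times, while ARPN, AT5G50740, AT2G39640 and 3 genes not named lost their calls (adjusted p up to 0.0693) and AT5G38160, AT5G38170 and AT1G09550 gained one (up to 0.0421). Deviations of same-numbered arrays correlated at 0.41 for 2xX2x and 2xX6x, 0.34 for 2xX2x and 2xX4x and 0.28 for 2xX4x and 2xX6x, and each 2xX2x array was closer to the 2xX6x array of its number than to its replicate (0.92 and 0.918 against 0.897). Over all 15 pairs of crosses the range was -0.24 to 0.41, and the labels state no shared batch, so the numbers were not treated as pairs. The block was 1 term common to all crosses and cannot fully take up a deviation shared by only some of them. A pairing within 2xX2x, 2xX4x and 2xX6x alone was not tested.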
